A study of Rattus norvegicus with 90 samples.

Results

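The libraries described here came from CD11b/c-positive brain cells of male Wistar Han rats that had been injured with IL-1β, had received human umbilical cord mesenchymal stromal cells (HuMSCs) intravenously at postnatal day 20 (P20), and were collected at P22. They are the 6 libraries titled with 20M or 125M HuMSCs per kg (M stands for the SI prefix mega), 3 at each dose, out of 90 in the series, and all genes were examined. The HuMSC20 and HuMSC125 groups, hereafter also the low and the high dose, were set against the injured group, 3 libraries from IL-1β-exposed rats of the same day that received PBS in place of cells. A middle dose of 50M cells per kg (HuMSC50, 3 libraries) and uninjured PBS-treated controls (3 libraries) belong to the same sequencing run and were used for reference. The study crossed 3 doses, 3 ages and the intravenous and intranasal routes, and asked how each HuMSC protocol changes the transcriptome of microglia in a rat model of the inflammatory brain injury of preterm infants. All injured and HuMSC groups shared the IL-1β exposure, a recombinant mouse IL-1β given intraperitoneally at 20 μg/kg from P1 to P5, and by their labels those groups differed in the cells or PBS they received afterwards. Tissue was taken 48 hours after the HuMSCs, from perfused brains without olfactory bulbs and cerebellum.

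Microglia are the resident macrophages of the brain parenchyma. They are kept in their homeostatic state by signals such as TGF-β and CSF1, they respond to IL-1β and other cytokines through NF-kB, and in the young brain they engulf synapses and support myelination. Mesenchymal stromal cells are connective tissue cells that are studied for the factors they secrete, which act on macrophages among other cells, and most cells given by vein are held back in the lung. The magnetic beads used here bind CD11b/c, which monocytes, border macrophages and neutrophils also carry, and bead enrichment can carry over other brain cells.

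The 9 libraries held 16.2 to 24.4 M counted reads (median 21.0 M). Pairs of libraries within a group correlated at r = 0.981 to 0.988 across genes, and pairs from different groups at r = 0.973 to 0.990, so the groups overlapped on this measure. Transcripts encoded by the mitochondrial genome took 3.19 to 4.59% of reads. The homeostatic microglia list, which marks the labelled cell type, summed to 78511 to 85249 CPM (counts-per-million, scaled by library size) in HuMSC20, 70989 to 85998 CPM in HuMSC125 and 73658 to 81011 CPM in injured libraries. The labels do not say that replicates came from separate animals, so p-values measure the spread between these samples, which may be technical.

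With both doses combined, no gene differed from the injured group after adjustment. The edgeR quasi-likelihood test called 0 of 14032 genes at a Benjamini-Hochberg adjusted p under 0.05, with 1342 genes (9.56%) at an unadjusted p under 0.05, of which 563 (4.01%) were higher and 779 (5.55%) lower, and DESeq2 called 25 (0.184% of the genes it adjusted). A typical gene was measured with a 95% interval of ± 0.27 on the log2 scale. All 6 HuMSC libraries lay on one side of all 3 injured libraries for 687 genes (4.9%), above them for 231 (1.65%) and below them for 456 (3.25%).

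The genes with the smallest unadjusted p are given as values that did not pass. On the higher side they included Ncoa3, with a pooled log2 difference of 0.37 ± 0.08 (SE, edgeR adjusted p = 0.287), which is described with the high dose below. Others on that side were Olfm3 (log2 difference 1.12) and genes with roles in the clock, in complement and in chemoattraction. Nr1d1, which encodes the clock repressor REV-ERBα, had 16.99, 13.9 and 14.1 CPM in HuMSC20 and 12.9, 10.0 and 13.8 CPM in HuMSC125 libraries, against 8.18, 7.75 and 5.24 CPM in injured libraries. C4b, a component of the classical complement pathway, had 8.46, 7.10 and 5.68 CPM in HuMSC20 and 6.89, 5.13 and 6.79 CPM in HuMSC125, against 3.30, 3.28 and 3.88 CPM in injured libraries. Neither gene's treated libraries overlapped the injured ones at either dose. The pooled log2 difference was 0.94 ± 0.20 (SE) for Nr1d1 and 0.93 ± 0.19 for C4b, each with an edgeR adjusted p of 0.287. Cmklr1, the receptor for the chemoattractant chemerin, had 290, 224 and 276 CPM in HuMSC20 and 288, 312 and 251 CPM in HuMSC125, against 202, 99.2 and 165 CPM in injured libraries. Its groups did not overlap either, and the log2 difference was 0.82 ± 0.19, which did not pass the test.

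On the lower side, Slfn13, a schlafen family RNase, had 89.2, 101 and 77.4 CPM in HuMSC20 and 70.0, 60.0 and 101 CPM in HuMSC125, against 162, 122 and 141 CPM in injured libraries. Socs2, a feedback inhibitor of growth hormone and cytokine receptor signalling, had 47.2, 51.9 and 53.4 CPM in HuMSC20 and 35.4, 41.3 and 42.0 CPM in HuMSC125, against 60.2, 60.2 and 66.7 CPM in injured libraries. Trip6, a LIM-domain adaptor protein of focal adhesions and the nucleus, had 45.3, 51.1 and 45.3 CPM in HuMSC20 and 35.7, 36.6 and 37.0 CPM in HuMSC125, against 59.9, 58.5 and 57.9 CPM in injured libraries. Both doses lay below the injured libraries for these genes, and for Socs2 and Trip6 the high dose also lay below the low dose without overlap. The pooled log2 differences were -0.78 ± 0.15 for Slfn13, -0.48 ± 0.09 for Socs2 and -0.50 ± 0.09 for Trip6, none of which passed the edgeR test (adjusted p = 0.287). DESeq2 called Nr1d1, C4b, Cmklr1, Slfn13, Socs2 and Trip6 in the pooled comparison. Ncoa3, Olfm3, Npl, Lig4, Gabbr1 and Glipr1 were among the others it called.

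**Figure D1:**
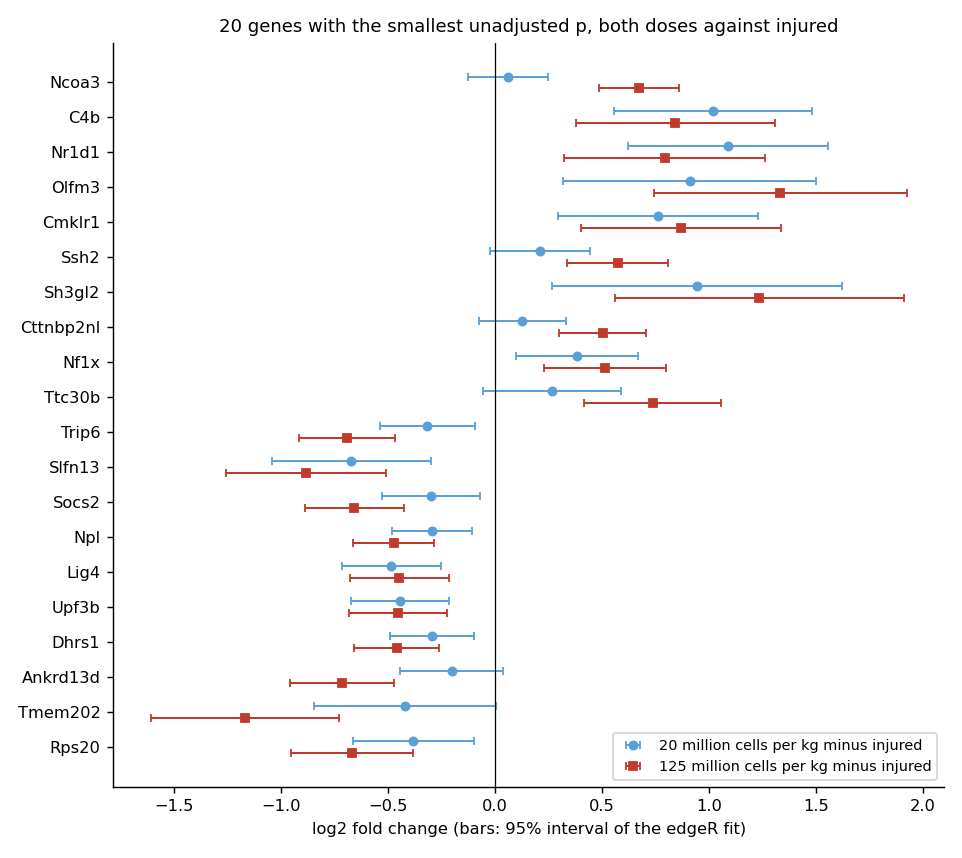
Log2 fold change against the injured group (x axis) for the 20 genes with the smallest unadjusted p in the pooled comparison, 10 higher and 10 lower, for HuMSC20 (circles) and HuMSC125 (squares). Bars are 95% intervals of the edgeR fit, and only the HuMSC125 value of Ncoa3 passed the adjusted test. The Ncoa3 interval of the low dose spans 0 (-0.12 to 0.25) and that of the high dose does not (0.49 to 0.86).

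At the low dose alone, 0 genes were called by edgeR, 557 (3.97%) had an unadjusted p under 0.05, of which 214 (1.53%) were higher and 343 (2.44%) lower, and DESeq2 called 4 genes (0.0195% of those it adjusted). These 4, chosen after their values were seen, were Nr1d1 and C4b, which were higher, and Gabbr1 and RGD1566006, which were lower. Nr1d1 differed by 1.09 ± 0.22 and C4b by 1.02 ± 0.22 on the log2 scale, each with an edgeR adjusted p of 1.00 after rounding. Gabbr1, a subunit of the metabotropic GABA receptor, had 56.3, 76.4 and 50.4 CPM in HuMSC20, against 139, 121 and 104.8 CPM in injured libraries. The 3 low-dose libraries lay below all injured ones, with a log2 difference of -0.99 ± 0.21, and the HuMSC125 libraries did so too, at 71.1, 93.4 and 75.7 CPM.

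At the high dose, Ncoa3 rose and was the one gene called by edgeR (0.00713% of genes tested), while 2061 genes (14.7%) had an unadjusted p under 0.05, 986 (7.03%) of them higher and 1075 (7.66%) lower. Ncoa3 encodes nuclear receptor coactivator 3, which joins steroid hormone and other nuclear receptors to histone acetyltransferases, and it lies on the forward strand of chromosome 3 at 162692185 to 162787548 in the deposited annotation, of a build that the sources used here do not give. It had 340, 381 and 391 CPM in HuMSC125 libraries, against 217, 235 and 245 CPM in injured libraries. The groups did not overlap, and the log2 difference was 0.67 ± 0.09 (n = 3 each, edgeR adjusted p = 0.0267). At the low dose it had 245, 254 and 228 CPM, which overlapped the injured libraries, and the log2 difference was 0.06 ± 0.09. The HuMSC50 libraries had 463, 442 and 436 CPM and the uninjured controls 427, 415 and 354 CPM, both above every HuMSC20 and injured library. The high-dose call was lost (edgeR adjusted p = 0.140, 0.219, 0.201, 0.138 and 0.0525) when injured replicate 1, 2 or 3 or HuMSC125 replicate 2 or 3 was left out, and it was kept without HuMSC125 replicate 1 (adjusted p = 0.0453). It was also lost when the fit held only the 6 libraries compared (adjusted p = 0.0939), with the log2 difference staying between 0.63 and 0.74 over all 11 alternatives.

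Trip6 was next at the high dose, with a log2 difference of -0.69 ± 0.10 and an edgeR adjusted p of 0.0764. Over its alternatives the adjusted p ran from 3.83e-05 to 0.219, and 3 of 11 called it. DESeq2 called 293 genes at the high dose (2.22% of those it adjusted), 172 higher and 121 lower. All 3 high-dose libraries lay on one side of all injured libraries for 3108 genes (22.1%), above for 1404 (10%) and below for 1704 (12.1%). At the low dose this held for 1558 genes (11.1%), above for 635 (4.53%) and below for 923 (6.58%).

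**Figure D2:**
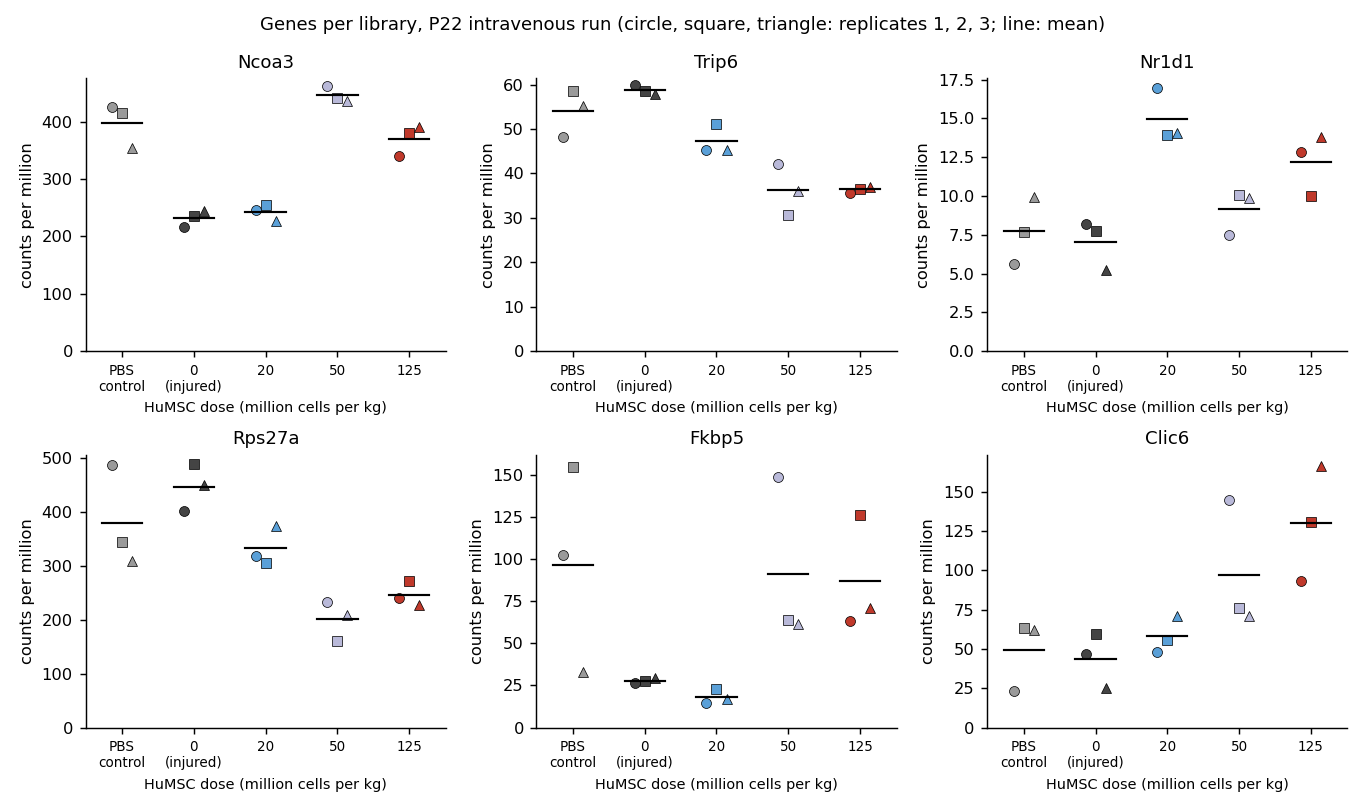
CPM (y axis) of 6 genes in each of the 15 libraries of the P22 intravenous run, by group and HuMSC dose (x axis), with circles, squares and triangles for replicates 1, 2 and 3 and a line at the mean. Ncoa3 is at 340 to 391 CPM in HuMSC125 and at 228 to 254 CPM in HuMSC20, while Trip6 is lower at both doses than in every injured library.

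Ribosomal protein genes were lower across the list. Of 62 tested members, 0 were called by edgeR in any comparison with the injured group. All 3 libraries lay below all injured libraries for 50 members at the high dose and for 29 at the low dose, where 12.1% and 6.58% of all genes did. In no member did they lie above, where 10% and 4.53% of all genes did. The median log2 difference was -0.33 at the high dose and -0.18 at the low dose, against -0.00 and 0.00 over all genes tested, and DESeq2 called 11 members lower at the high dose (0.919% of all genes it adjusted). The members summed to 18369, 18587 and 19594 CPM in HuMSC20 (lowest, median and highest) and 15250, 17535 and 18232 CPM in HuMSC125, against 20080, 21724 and 22175 CPM in injured libraries. Every treated library was thus below every injured one on the sum, and HuMSC125 was below HuMSC20. On the mean log2 CPM over the list, which gives each gene the same weight, HuMSC125 (5.909 to 6.160) lay below the injured libraries (6.221 to 6.396) and HuMSC20 (6.205 to 6.291) overlapped them.

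Rps27a, whose product is made as a fusion of ubiquitin with a small-subunit protein, had 317, 305 and 374 CPM in HuMSC20 and 239, 271 and 227 CPM in HuMSC125, against 401, 489 and 448 CPM in injured libraries. The 3 groups did not overlap, and the log2 differences were -0.42 ± 0.17 at the low and -0.86 ± 0.17 at the high dose (edgeR adjusted p = 1.00 and 0.133). Rps20, another small-subunit protein gene, had 146, 148 and 166 CPM in HuMSC20 and 132, 139 and 106 CPM in HuMSC125, against 191, 208 and 199 CPM in injured libraries. Its order was the same, with log2 differences of -0.38 ± 0.13 and -0.67 ± 0.13 that did not pass. Ribosomal protein genes have many near-identical processed copies, so single values are uncertain. The HuMSC50 libraries summed to 13647 to 16409 CPM, which overlapped HuMSC125 (15250 to 18232 CPM) and lay below the HuMSC20 and injured libraries. The control libraries spanned 16073 to 20755 CPM, overlapping all other groups.

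Many ribosomal protein messages begin with a C followed by a run of pyrimidines at the start of transcription, a feature through which their translation follows growth signals in mammals. In RefSeq (GRCr8), 61 genes of the list had an entry among 27457 promoters, and 24 of them (39.3%) had at the annotated start, on the gene's own strand, a C followed by at least 4 bases that are each C or T, against 2.63% of all promoters. For 3 of the members named by their p, the 15 bases before the start and the 15 from the start onward are shown, the start run in capitals where it matched, so that members of the list can be compared at this site.
Rpl22, chr5:168117946-168117975, forward strand: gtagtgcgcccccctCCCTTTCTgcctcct
Rps27, chr2:177964592-177964621, reverse strand: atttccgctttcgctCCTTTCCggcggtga
Rps27a, chr14:107488927-107488956, reverse strand: cctaaagggcggttccttcgacccggagac
Rpl22 and Rps27 matched, with runs of 8 and 7 bases, and Rps27a did not. Rps24 and Rpl26, also named by their p, did not match either and are not shown. A match needed the C at the annotated first base and a run of the stated length. A gene without a match can thus still have C and T bases from its start, as Rps24 and Rps27a do. Rpl22 differed by -0.57 ± 0.12 and Rps27 by -0.69 ± 0.14 at the high dose, and neither passed the edgeR test.

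Markers of ependymal cells and the choroid plexus were higher at the high dose. All 10 tested members of the list (12 listed, Otx2 at 0 in every library) lay above all injured libraries at the high dose, where 10% of all genes did. At the low dose 0 of 10 did, where 4.53% of all genes did. The median log2 differences were 1.17 and 0.34. No member passed the edgeR test, and DESeq2 called 3 higher at the high dose (1.31% of all genes it adjusted). Clic6, a chloride channel protein of choroid plexus epithelium, had 48.1, 55.9 and 70.7 CPM in HuMSC20 and 93.5, 131 and 166 CPM in HuMSC125, against 46.7, 59.3 and 25.04 CPM in injured libraries. HuMSC125 lay above the HuMSC20 and injured libraries and HuMSC20 overlapped the injured libraries, with a high-dose log2 difference of 1.58 ± 0.40. Kl, which encodes klotho, had 39.8, 50.5 and 58.6 CPM in HuMSC20 and 73.6, 96.4 and 136 CPM in HuMSC125, against 38.1, 51.4 and 15.9 CPM in injured libraries. The same separation held, and its high-dose log2 difference was 1.54 ± 0.43.

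The whole list summed to 2847 to 5197 CPM in HuMSC20 and 5639 to 9691 CPM in HuMSC125, against 1951 to 4785 CPM in injured libraries, and most of this sum was Ttr, the transthyretin that the choroid plexus secretes. HuMSC50 libraries summed to 3360 to 7402 CPM and overlapped HuMSC125. In pooled cells such as these, more cells of a type and more RNA per cell cannot be told apart. Of the other brain cell lists at the high dose, 4 of 9 tested oligodendrocyte precursor markers, 3 of 13 astrocyte markers and 4 of 13 fibroblast markers lay above all injured libraries, where 10% of all genes did, while 1 of 16 oligodendrocyte, 1 of 17 neuron, 0 of 14 endothelial and 1 of 13 mural cell markers did. The astrocyte list summed to 809 to 1175 CPM in HuMSC20 and 1256 to 1381 CPM in HuMSC125, against 876 to 985 CPM in injured libraries. On the sum, the high dose stood apart from the injured libraries and the low dose overlapped them. HuMSC50, at 940 to 1315 CPM, overlapped HuMSC125. On the mean log2 CPM over the list, HuMSC125 (4.141 to 4.654) overlapped the injured libraries (3.700 to 4.255). The part of carried-over brain cells in the other high-dose results was not tested.

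**Figure D3:**
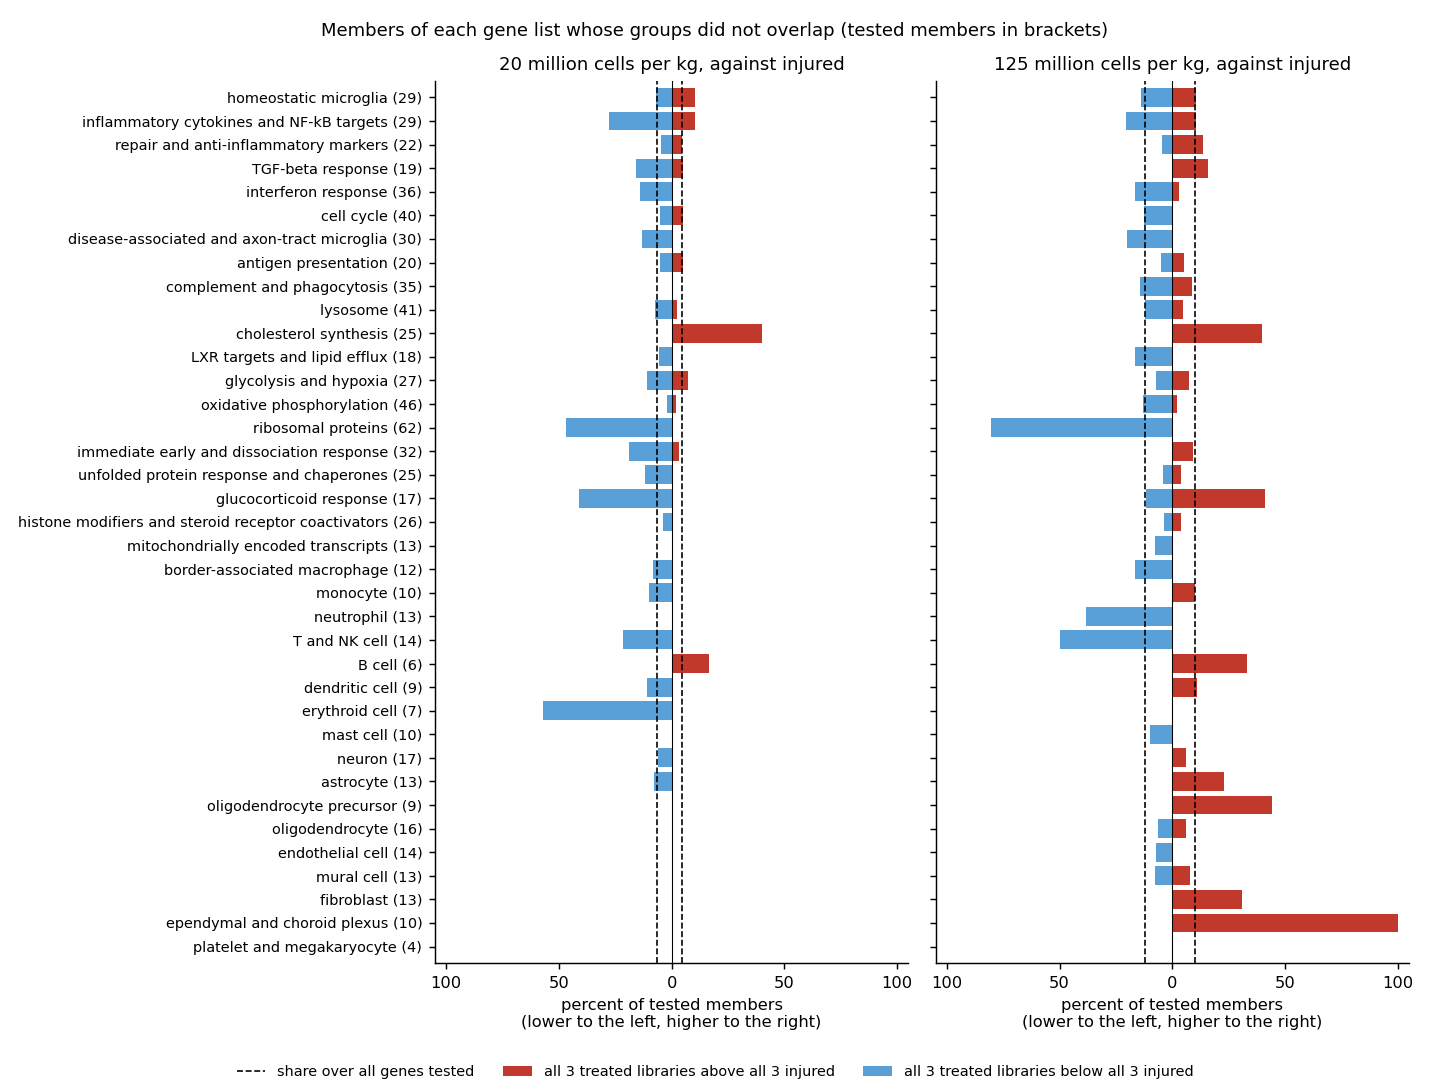
Percent of tested members of each gene list (number tested in brackets) for which all 3 HuMSC libraries were above (red, to the right) or below (blue, to the left) all 3 injured libraries, for HuMSC20 (left) and HuMSC125 (right). Dashed lines mark the percent over all 14032 genes tested. At the high dose 10 of 10 ependymal and choroid plexus markers are above and 50 of 62 ribosomal protein genes below.

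Markers of blood-borne cells differed by cell type at the high dose. Of 14 tested T and NK cell markers, 7 lay below all injured libraries (12.1% of all genes did) and 0 above, with a median log2 difference of -0.77. At the low dose 3 lay below (6.58% of all genes did), with a median of -0.31. Prf1, the pore-forming protein of cytotoxic lymphocytes, had 1.46, 3.74 and 3.69 CPM in HuMSC20 and 0.728, 1.01 and 0.713 CPM in HuMSC125, against 3.24, 3.98 and 2.96 CPM in injured libraries. HuMSC125 lay below the HuMSC20 and injured libraries, and the log2 difference was -2.05 ± 0.48. Gzmk, a granzyme of memory T cells, had 0.708, 1.74 and 2.03 CPM in HuMSC20 and 0.437, 0.720 and 0.380 CPM in HuMSC125, against 1.83, 1.89 and 2.91 CPM in injured libraries. The high dose stood apart from the injured libraries and the low dose overlapped them, with a high-dose log2 difference of -2.10 ± 0.44. DESeq2 called these genes and Ccl5 lower, 3 of the list, and edgeR called none. The list as a whole summed to 461 to 513 CPM in HuMSC20 and 409 to 477 CPM in HuMSC125, against 429 to 553 CPM in injured libraries, so the sums overlapped, and Gzmb was at 0 in every library. HuMSC50 sums, at 375 to 552 CPM, overlapped too. On the mean log2 CPM over the list, HuMSC125 (-0.519 to -0.366) and HuMSC50 (-0.925 to -0.336) both lay below the injured libraries (0.055 to 0.364). HuMSC20 (-0.489 to 0.189) overlapped them.

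Of 13 tested neutrophil markers, 5 lay below all injured libraries at the high dose, where 12.1% of all genes did, and 0 at the low dose, with median log2 differences of -0.82 and -0.07. The list summed to 541 to 684 CPM in HuMSC20 and 429 to 591 CPM in HuMSC125, against 564 to 815 CPM in injured libraries. HuMSC50 libraries summed to 398 to 439 CPM, which overlapped HuMSC125 and lay below every injured library, so lower values were not particular to the high dose. S100a9, an abundant neutrophil calcium-binding protein, had 129, 100 and 125 CPM in HuMSC20 and 35.8, 104.9 and 106 CPM in HuMSC125, against 120, 147 and 217 CPM in injured libraries. HuMSC125 lay below the injured libraries, replicate 1 by the widest margin, and the log2 difference was -0.97 ± 0.38. Erythroid markers varied widely between libraries. Hbb, a beta globin, had 27.3, 228 and 55.9 CPM in HuMSC20 and 59.5, 78.9 and 395 CPM in HuMSC125, against 2323, 253 and 489 CPM in injured libraries. Injured replicate 1 stood far above the rest. The low-dose libraries lay below all injured ones and the high-dose libraries overlapped them, with log2 differences of -3.30 ± 1.38 and -2.52 ± 1.33 that did not pass. Of 7 tested erythroid markers, 4 lay below all injured libraries at the low dose (6.58% of all genes did) and 0 at the high dose, with medians of -3.15 and -2.19.

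Monocyte, B cell and dendritic cell markers did not share the lower values at the high dose. The monocyte list summed to 491 to 597 CPM in HuMSC20 and 720 to 810 CPM in HuMSC125, against 550 to 665 CPM in injured libraries. On the sum, the high dose lay above the injured libraries and the low dose overlapped them. On the mean log2 CPM over the list, HuMSC125 (3.136 to 3.446) overlapped the injured libraries (3.208 to 3.303) and HuMSC20 (3.021 to 3.118) lay below them. By single genes, 1 of 10 monocyte, 2 of 6 B cell and 1 of 9 dendritic cell markers lay above all injured libraries at the high dose (10% of all genes did) and 0 below, with median log2 differences of -0.02, 0.33 and -0.03.

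Genes that respond to glucocorticoid hormones differed in direction between the doses without passing the edgeR test. Of 17 tested members, 7 lay above and 2 below all injured libraries at the high dose, where 10% of all genes lay above and 12.1% below, with a median log2 difference of 0.38. At the low dose 0 lay above and 7 below, where 4.53% and 6.58% of all genes did, with a median of -0.22. Fkbp5, a co-chaperone that dampens the glucocorticoid receptor, had 14.5, 22.6 and 16.7 CPM in HuMSC20 and 63.2, 126 and 71.0 CPM in HuMSC125, against 26.5, 27.5 and 29.4 CPM in injured libraries. The injured libraries lay between the doses with no overlap, and the log2 difference was 1.64 ± 0.47 at the high and -0.63 ± 0.47 at the low dose. The control libraries, at 102, 155 and 33.0 CPM, spread over most of that range. Klf9, a zinc-finger transcription factor induced by the hormone, had 14.04, 8.39 and 10.7 CPM in HuMSC20 and 15.7, 11.5 and 21.4 CPM in HuMSC125, against 10.3, 7.51 and 7.57 CPM in injured libraries. It was above all injured libraries at the high dose alone (log2 difference 0.94 ± 0.25), and DESeq2 called Klf9, Errfi1 and Fkbp5 higher at the high dose.

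Immediate early genes, which are switched on within minutes of stimulation and also by tissue dissociation, were uneven among the high-dose libraries. Egr2 had 82.8, 112 and 79.8 CPM in HuMSC20 and 200, 277 and 57.5 CPM in HuMSC125, against 52.5, 43.05 and 54.2 CPM in injured libraries. Replicates 1 and 2 of HuMSC125 were high and replicate 3 lay just above the injured libraries, so the groups did not overlap, with a log2 difference of 1.83 ± 0.47 that did not pass. Il1b, which encodes IL-1β itself, had 79.1, 81.5 and 102 CPM in HuMSC20 and 144, 228 and 78.4 CPM in HuMSC125, against 77.1, 93.1 and 96.9 CPM in injured libraries. The same HuMSC125 replicate 3 was low, the groups overlapped, and the high-dose log2 difference was 0.76 ± 0.33. Over the list of 32 tested genes, 3 lay above and 0 below all injured libraries at the high dose, with a median of 0.33. The count above is near the share over all genes (10%), while 12.1% of all genes lay below. At an unadjusted p under 0.05, 7 were higher and 0 lower at the high dose (7.03% and 7.66% of all genes were). DESeq2 called 3 higher there (1.31% of all genes it adjusted). At the low dose 1 lay above and 6 below, where 4.53% and 6.58% of all genes did. The low-dose median was -0.05.

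**Figure D4:**
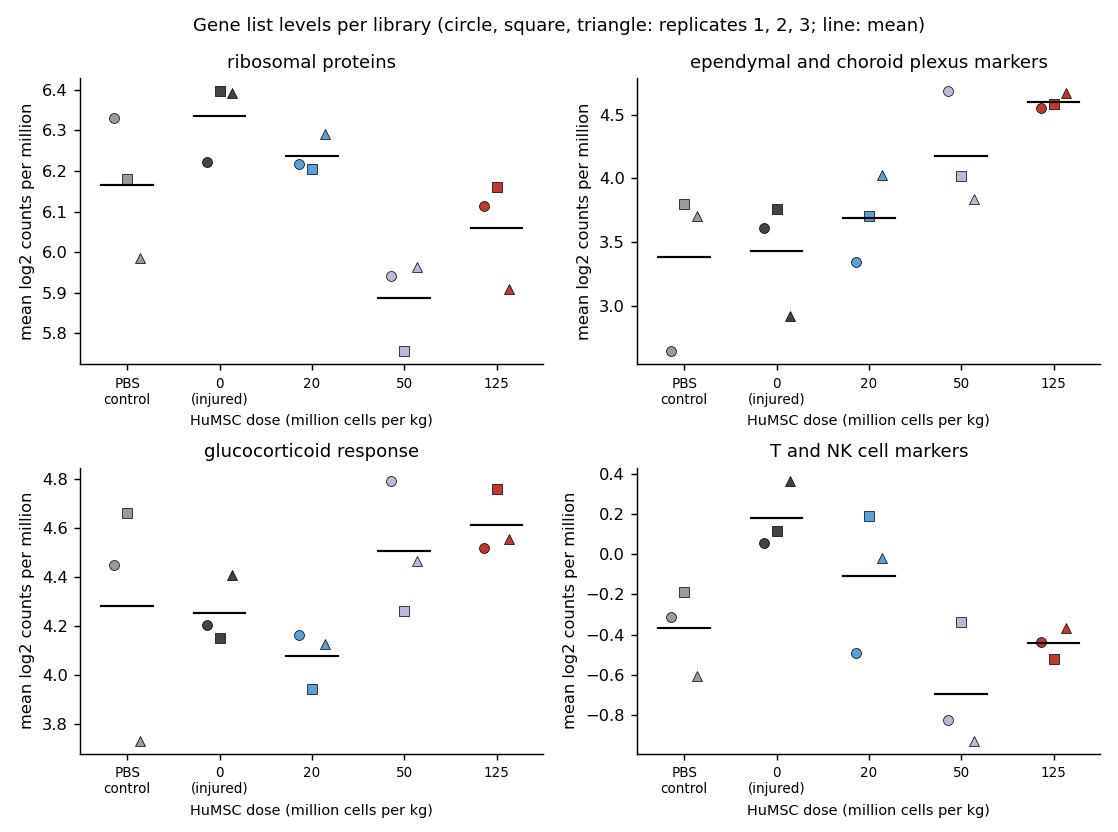
Mean log2 CPM of 4 gene lists (y axis) in each library of the P22 intravenous run, by group and HuMSC dose (x axis), with circles, squares and triangles for replicates 1, 2 and 3 and a line at the mean. The ependymal and choroid plexus level is 4.55 to 4.67 in HuMSC125, 3.34 to 4.03 in HuMSC20 and 2.92 to 3.76 in the injured group.

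Genes of microglial identity had values near those of the injured libraries. Of 29 tested homeostatic genes, 3 lay above and 4 below all injured libraries at the high dose, close to the shares over all genes, and the median log2 difference was 0.04 at the high and 0.05 at the low dose. P2ry12, the purinergic receptor that guides microglial processes, had 1530.0, 2005 and 1815 CPM in HuMSC20 and 1429, 1831 and 1765 CPM in HuMSC125, against 1609, 1686 and 1984 CPM in injured libraries. The groups overlapped, and the pooled log2 difference was -0.03 (95% interval -0.30 to 0.25). Cx3cr1, the fractalkine receptor, differed by 0.09 ± 0.11. Tmem119, a surface marker of microglia, differed by -0.46 ± 0.20 and did not pass. Mertk, a receptor for the uptake of dying cells, had 873, 941 and 824 CPM in HuMSC20 and 963, 1102 and 1140.1 CPM in HuMSC125, against 816, 839 and 786 CPM in injured libraries. HuMSC125 lay above the injured libraries (log2 difference 0.39 ± 0.08, edgeR adjusted p = 0.133), and HuMSC20 overlapped them.

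Among lists of microglial state, 10 of 25 tested cholesterol synthesis genes lay above all injured libraries at each dose and 0 below. Over all genes the share above was 4.53% at the low and 10% at the high dose. Sqle, the squalene epoxidase, had 39.2, 29.8 and 34.9 CPM in HuMSC20 and 41.4, 38.2 and 44.3 CPM in HuMSC125, against 29.1, 29.6 and 28.7 CPM in injured libraries. Both doses lay above the injured libraries, the low dose by a narrow margin, and the pooled log2 difference was 0.38 ± 0.11. Of 30 disease-associated and axon-tract genes, 6 lay below and 0 above at the high dose, where 12.1% of all genes lay below, and the median was -0.10. Gpnmb, a glycoprotein of lipid-laden macrophages, had 102, 92.5 and 87.0 CPM in HuMSC20 and 73.9, 92.6 and 66.6 CPM in HuMSC125, against 120, 108 and 108 CPM in injured libraries. Both doses were below the injured libraries, with a pooled log2 difference of -0.39 ± 0.10 that did not pass.

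Interferon response genes had 6 of 36 below and 1 above the injured libraries at the high dose, with a median of -0.20, and inflammatory cytokines and NF-kB targets had 6 of 29 below and 3 above. Over all genes, 12.1% lay below and 10% above, and the differences of these counts from those shares were not tested. At the low dose, 8 of 29 inflammatory genes lay below and 3 above, where 6.58% and 4.53% of all genes did. Their median was -0.25. That list summed to 2889 to 3209 CPM in HuMSC20 and 2552 to 5278 CPM in HuMSC125, against 3353 to 3912 CPM in injured libraries. On the sum, HuMSC20 lay below the injured libraries and HuMSC125 overlapped them. Interferon genes had 5 of 36 below and 0 above at the low dose, and edgeR called 0 members of either list. Repair markers, antigen presentation, lysosome and LXR target lists had median log2 differences of -0.02 to 0.06 at the high dose. Mrc1, Igf1, Spp1, Apoe, Cd74, Il1rn and Mki67 had pooled log2 differences between -0.46 and 0.24, none of which passed. C5ar1, the receptor for the complement fragment C5a, had 87.3, 86.1 and 100 CPM in HuMSC20 and 73.9, 76.6 and 68.2 CPM in HuMSC125, against 108, 84.8 and 101 CPM in injured libraries. The high dose was below all injured libraries and the low dose overlapped them, with a high-dose log2 difference of -0.43 ± 0.10 that did not pass in edgeR.

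The doses were then compared with each other, HuMSC125 minus HuMSC20. edgeR called 0 genes, 1205 (8.59%) had an unadjusted p under 0.05 (718 higher, 5.12%, and 487 lower, 3.47%), and DESeq2 called 28 (0.207% of those it adjusted), 24 of them higher. Ncoa3 had the smallest p, with a log2 difference of 0.61 (95% interval 0.43 to 0.80, edgeR adjusted p = 0.0782, and 9.48e-07 to 0.471 over the alternatives). Without HuMSC125 replicate 3, 1 gene was called. The difference was 2.27 (1.25 to 3.30) for Fkbp5, 1.16 (0.33 to 2.00) for Clic6, -1.85 (-2.88 to -0.83) for Prf1 and -0.43 (-0.79 to -0.08) for Rps27a. These intervals are not adjusted for the number of genes and none of the differences passed.

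Errfi1, a feedback inhibitor of the EGF receptor, had 98.3, 121 and 98.3 CPM in HuMSC125, against 68.6, 61.1 and 69.8 CPM in HuMSC20. All high-dose libraries lay above all low-dose libraries, and the log2 difference was 0.67 (0.43 to 0.91). By list, 10 of 17 glucocorticoid response genes and 8 of 10 ependymal and choroid plexus markers were above all low-dose libraries, where 8.3% of all genes were, with median log2 differences of 0.58 and 1.07. In the other direction 15 of 62 ribosomal protein genes were below all low-dose libraries, where 6.77% of all genes were, and over both directions 15.1% of all genes did not overlap. The interval of the dose difference was -0.75 to 0.16 for Nr1d1 and -0.62 to 0.27 for C4b, and a typical gene had an interval of ± 0.32.

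Set against HuMSC50, the low and high doses together gave 27 called genes (0.192% of those tested), 25 lower (0.178%) and 2 higher (0.0143%), with edgeR adjusted p from 0.0233 to 0.0490. The log2 differences of the 25 ran from -0.83 to -0.33. Ncoa3 fell by 0.58 ± 0.07. Kdm7a, a histone demethylase, had 18.1, 18.4 and 17.7 CPM in HuMSC20 and 22.2, 18.6 and 23.2 CPM in HuMSC125, against 30.6, 41.8 and 32.5 CPM in HuMSC50 libraries. Cpeb4, which controls translation through cytoplasmic polyadenylation, had 45.2, 50.5 and 45.6 CPM in HuMSC20 and 48.3, 45.6 and 63.1 CPM in HuMSC125, against 76.6, 83.7 and 72.4 CPM in HuMSC50. Neither gene's groups overlapped, and the log2 differences were -0.83 ± 0.13 for Kdm7a and -0.64 ± 0.09 for Cpeb4.

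The other called genes included Kmt5b and Nsd3, which are histone methyltransferases, Rsf1, a subunit of a chromatin remodelling complex, Mbnl1, a splicing regulator, Tut7, a terminal uridylyltransferase, Adarb1, an RNA-editing deaminase, Trim33 and Skil, which act in TGF-β signalling, and Soat1, which esterifies cholesterol. All of these fell, with log2 differences of -0.52 to -0.34. The genes that rose were Arrdc2, an arrestin-domain protein, by 0.46 ± 0.08, and Tmem202, a membrane protein, which had 4.25, 4.03 and 4.29 CPM in HuMSC20 and 2.38, 2.64 and 2.47 CPM in HuMSC125, against 1.52, 1.40 and 1.78 CPM in HuMSC50. Its groups did not overlap (log2 difference 1.04 ± 0.19). The mean of the injured and of the control libraries lay on the same side of HuMSC50 as the low and high doses for all 27 genes.

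**Figure D5:**
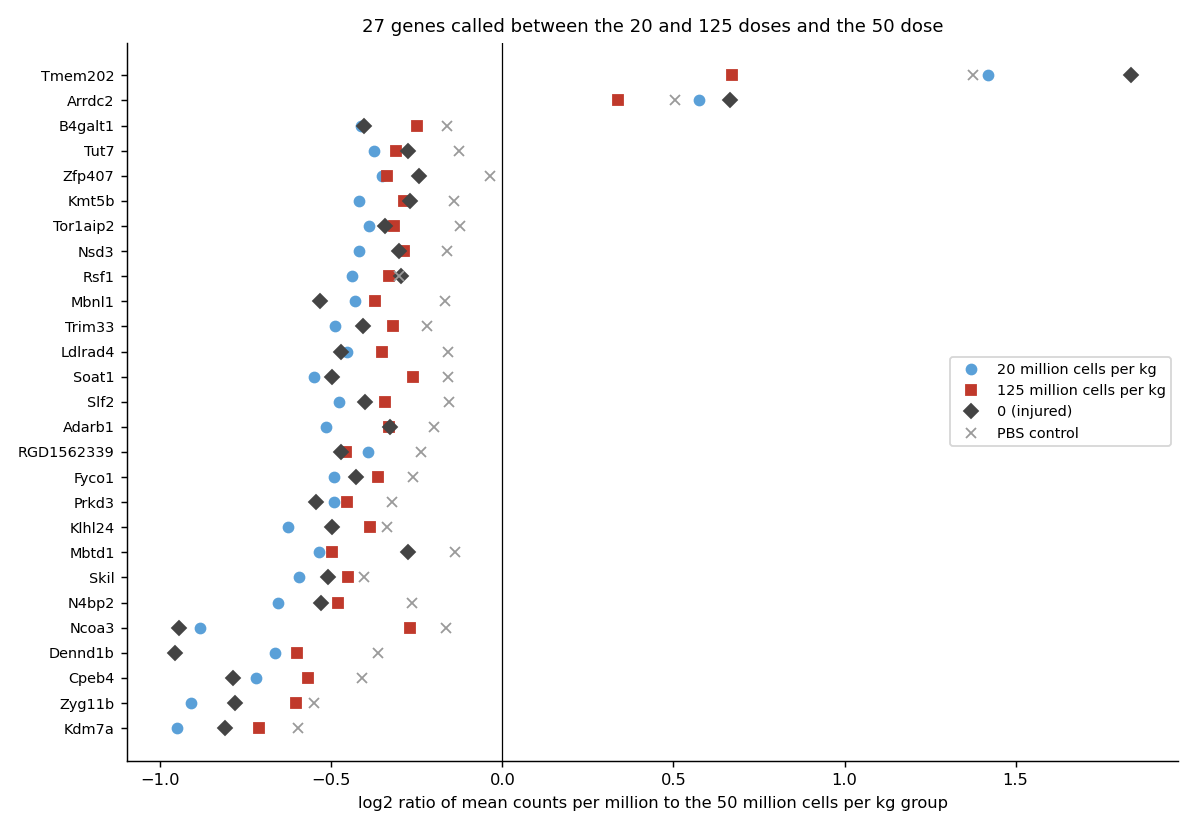
Log2 ratio of each group's mean CPM to the HuMSC50 mean (x axis) for the 27 genes called between the low and high doses and HuMSC50. Circles are HuMSC20, squares HuMSC125, diamonds injured and crosses uninjured control libraries (n = 3 each, no error shown), and for every gene all 4 means lie on the same side of 0.

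By list, 14 of 26 tested histone modifiers and coactivators were lower against HuMSC50 at an unadjusted p under 0.05 (11.1% of all genes were, and 18.3% differed in either direction) with a median log2 difference of -0.22. Ncoa3 is among the 14, and the list, like the others, was drawn up with earlier results of these data known. Of 46 oxidative phosphorylation genes 27 were higher and of 62 ribosomal protein genes 44 were higher (7.22% of all genes were), each with a median of 0.27. So were 7 of 13 neutrophil and 4 of 14 T and NK cell markers, with medians of 0.75 and 0.79 and 0 lower. All 6 libraries of the low and high doses lay below all HuMSC50 libraries for 11 of the 26 histone modifiers and coactivators (5.67% of all genes) and above them for 9 of the 46 oxidative phosphorylation genes and 1 of the 62 ribosomal protein genes (2.02% of all genes), where 7.69% of all genes did not overlap in either direction. Mitochondrially encoded transcripts took 3.64 to 4.28% of reads in HuMSC20 and 3.19 to 4.59% in HuMSC125, against 3.08 to 3.55% in HuMSC50, and their part in these differences was not tested. The count of 27 rested on single libraries. It fell to 0 without any one of HuMSC20 replicates 1, 2 or 3, HuMSC125 replicates 1 or 2, or HuMSC50 replicates 2 or 3, and it was 132 without HuMSC50 replicate 1 and 687 without HuMSC125 replicate 3. DESeq2 called 691 genes (7.11% of those it adjusted), and 0 were called when the fit held the 9 libraries compared.

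The pooled difference from the injured group was also tested against the same doses by the intranasal route at P22 and intravenously at P12, as interaction terms over 30 libraries each. Each route and age was a run of its own. Run differences that add to all groups cancel, and any others cannot be told apart from route or age. Between routes, edgeR called 0 of 14184 genes, while 824 (5.81%) passed an unadjusted p of 0.05, 496 of them higher (3.5%), and DESeq2 called 0. With replicate 1 of every group left out, 1 gene was called. The difference for Ncoa3 was -0.38 ± 0.26 (95% interval -0.91 to 0.15). By list, 10 of 32 immediate early genes and 9 of 25 cholesterol synthesis genes were higher in the intravenous effect at an unadjusted p under 0.05. Of all genes 3.5% were, and 0 members of either list were lower. The list medians were 0.54 and 0.29, while those of the intravenous effect itself were 0.12 and 0.13. Between ages, edgeR called 0 of 14405 genes, while 1445 (10%) passed an unadjusted p of 0.05 and DESeq2 called 11 (0.0778%). Socs2 was lower by -0.52 ± 0.12 in the P22 effect than in the P12 effect and did not pass (edgeR adjusted p = 0.248, and 0.0269 to 0.999 over the alternatives). Of 10 ependymal and choroid plexus markers, 9 were higher in the P22 effect at an unadjusted p under 0.05 (7.16% of all genes were), with a median difference of 1.40. So were 6 of 13 astrocyte and 6 of 13 fibroblast markers, with medians of 0.71 and 0.81 and 0 lower. In the P22 effect itself the medians were 0.74 for ependymal and choroid plexus, 0.26 for astrocyte and 0.16 for fibroblast markers. Of 25 unfolded protein response genes 10 and of 11 mast cell markers 7 were lower (2.87% of all genes were), with medians of -0.23 and -1.34. Those of the P22 effect itself were -0.16 and -0.80. Gfap, the intermediate filament of astrocytes, was higher by 1.65 ± 0.39, which did not pass.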

How the data were processed

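Gene counts of 15 libraries (P22 intravenous run), and of 30 for each interaction test, were used. The deposited values are raw counts per gene, whole numbers. Polyadenylated RNA (100 ng of total RNA) was made into strand-specific libraries and read from one end for 75 bp, per the labels' protocols. The submitters' processing notes name HTSeq 0.5.3, STAR 2.7.2d, DESeq2 1.8.1 and SAMtools. Genome build, annotation release and strand setting of the counting are not given in the sources used here; overlapping genes, near-identical copies, ribosomal protein genes and globins are uncertain.

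Genes were filtered with edgeR's filterByExpr (minimum count 10, minimum total 15), which kept 14032 of 32623 genes. TMM normalization, the quasi-likelihood F test (edgeR 4.0.16, limma 3.58.1, R 4.3.3) and Benjamini-Hochberg adjustment over all genes tested followed, with 1 mean per group over the 15 libraries of the run, which share 1 estimate of the spread. Genes with an adjusted p under 0.05 are called. CPM are scaled by TMM factors (0.936 to 1.05), SE are of the edgeR log2 fold change, and DESeq2 1.42.0 was an alternative. Procedures were tested on simulated data.

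Named genes were the 10 largest changes in each direction among called genes, or the smallest unadjusted p where none was called, up to 4 members per list, and 15 fixed genes of microglial state, Ncoa3 among them; a few were chosen after their values were seen and are said to be so. Gene lists (37 lists, 860 genes, of which 36 could not be matched to the table) and members were chosen with earlier results of these data known. No 2 libraries agreed within sampling noise (chi-square per degree of freedom 16.3 to 50.6 within groups).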

Additional observations from a re-analysis of the deposited data

How the results depend on the processing

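The alternatives changed counts of calls far more than directions: of 1723 values of named genes under the alternatives, 0 called values reversed, 1349 kept their direction and side of the threshold, 291 were no longer called, 63 became called, and 20 values called under neither setting changed sign. Most of the values no longer called belong to the comparison with HuMSC50. With DESeq2, 25 genes were called for both doses, 4 for the low dose, 293 for the high dose, 28 between the doses, 691 against HuMSC50 and 11 between ages. Without a filter on low counts, 3 genes were called at the high dose and 3 against HuMSC50, and with DESeq2's size factors 1 was called against HuMSC50. With only the groups compared in the fit, 2 were called at the high dose, without Ncoa3, and 0 against HuMSC50. Leaving out 1 library at a time gave 0 to 2 calls at the high dose (2 without HuMSC125 replicate 3, which did not include Ncoa3), 0 to 1 between the doses, 0 to 687 against HuMSC50 and 0 to 1 between routes. The causes were not tested. With the replicate number as a block, 0 genes were called at the high dose (Ncoa3 adjusted p = 0.120) and 0 against HuMSC50; the numbers are not known to pair samples, since same-numbered libraries of HuMSC20, HuMSC125 and injured correlated at -0.116 to 0.316 and different-numbered ones at -0.318 to 0.302, and same-numbered libraries of the low or high dose and HuMSC50 at -0.288 to 0.00202. With 3 libraries per group, a gene's typical 95% interval of ± 0.32 at 1 dose limits what could be seen, and markers under or near 1 CPM, such as Klrd1 and Gzmk, rest on few reads.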

Other observations

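Of the 24 genes that DESeq2 called higher in HuMSC125 than in HuMSC20, 3 are given here, chosen after their values were seen, and none passed the edgeR test. DESeq2's log2 difference was 1.25 for Dnah11 and 1.32 for Dnali1, both axonemal dynein components, and 1.29 for Ttc21a, an intraflagellar transport protein.

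The clock genes beside Nr1d1 were also looked up after its values were seen. Nr1d2, its closest relative, had 74.4, 89.7 and 82.2 CPM in HuMSC20 and 78.3, 75.0 and 85.0 CPM in HuMSC125, against 67.9, 74.1 and 51.4 CPM in injured libraries. The groups did not overlap, by a margin of under 1 CPM. Dbp, a clock output gene, had 40.8, 46.9 and 34.8 CPM in HuMSC20 and 32.9, 35.7 and 27.8 CPM in HuMSC125, against 27.5, 36.5 and 19.9 CPM in injured libraries, which overlapped both doses. Per2 and Per3 overlapped as well. The time of day of collection is not given in the labels, and its part in these values was not tested.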
